A study of Capra hircus with 10 samples.

Results

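Connexins are the membrane proteins that build gap junctions, channels through which neighbouring cells exchange ions and small molecules such as cyclic nucleotides. Each connexon, a ring of connexins in one cell, docks with the connexon of the next cell. In the ovary, gap junctions couple granulosa cells to each other and to the oocyte, and gap junctions are also known between luteal cells and between the cells of vessel walls. Pannexins share the membrane topology of connexins but mostly form channels of a single membrane, through which ATP leaves the cell. The genes described here are GJA1, GJA4, GJA5, GJB2 and GJC1, which encode connexins, and PANX1, which encodes a pannexin and so is no connexin. They were taken by their official symbols from the mRNA rows of the transcript table. All 6 were present, among 20587 gene symbols, under the gene identifiers 102191242 (GJA1), 102185334 (GJA4), 102189449 (GJA5), 102171720 (GJB2), 102185774 (GJC1) and 102174365 (PANX1).

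The ovaries came from Anhui white goats and were obtained at a slaughterhouse. Whole ovaries were used, 5 in the luteal phase, when progesterone is secreted by the corpus luteum, and 5 in the follicular phase, when follicles grow towards ovulation. No treatment and no age is given for either phase, and the sources do not state that every ovary is from a separate goat, so p-values measure only the spread between these ovaries. Expression was measured as FPKM, a fragment count relative to the length of the transcript and to the size of the library, summed here by gene symbol. Levels of different genes can therefore be set side by side. The summed FPKM of an ovary was 452508 to 503276 for the luteal and 492324 to 540124 for the follicular phase, and the depth in reads of each ovary is unknown, since the paper sums its reads over the 10 libraries. All 9 luteal markers in the table, among them STAR, the gene for cholesterol import into mitochondria, were higher in the luteal phase, with summed FPKM of 9183 to 12702 against 209 to 296. In whole ovaries, fewer cells of a type and less RNA per cell cannot be told apart.

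In the luteal phase, GJA4 and GJA5 were 2.49 and 2.58 times as high as in the follicular phase and PANX1 was slightly higher, whereas GJA1 was lower (limma on log2(FPKM + 0.1), two-sided, adjusted p under 0.05 over all 15359 genes tested). GJC1 and GJB2 did not pass this test. Thus 4 of the 6 genes were called, 3 of them higher in the luteal phase. Among all genes tested, 43.7% were called, 15.9% higher in the luteal phase and 27.8% higher in the follicular phase. The luteal share of all calls was 36.3%, but 48.8% once all ovaries were given the same median and 52.1% on the TPM scale, and the median change over all genes was -0.14 (log2). The split of the 6 genes, 3 higher and 1 lower, was the same under both scalings.

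GJA1 encodes the connexin best known from granulosa cells, and it was the most abundant connexin in each ovary. Its FPKM was 416, 303, 247, 265 and 286 in luteal phase ovaries 1 to 5, and 654, 588, 368, 485 and 473 in follicular phase ovaries 1 to 5. Luteal phase ovary 1 lay above follicular phase ovary 3, so the phases overlapped, while the other 4 luteal phase ovaries lay below all follicular phase ovaries. The means were 303 ± 66.3 and 514 ± 111 (SD, n = 5 each). The change was -0.76 on the log2 scale (standard error 0.17, limma adjusted p = 0.00473), that is, 1.69 times higher in the follicular phase. The two-sided exact permutation test of the 5 against 5 ovaries gave p = 0.0159 for GJA1 (0.0440 after adjustment over all genes), where 0.00794 is the smallest possible and 49.4% of all genes reached an unadjusted p under 0.05. By level, GJA1 ranked between 107 and 145 among all gene symbols in the follicular phase ovaries and between 151 and 216 in the luteal phase ovaries.

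GJA1 is used by several cell types of the ovary. Of the 9 granulosa markers, 5 were lower in the luteal phase by the same test, 1 (NR5A2, a nuclear receptor also used in luteal cells) was higher and 3 were not called. Their summed FPKM was 138 to 751 in luteal against 278 to 1211 in follicular phase ovaries, and none was listed at 0. In the same direction as GJA1, 6 of the 9 smooth muscle and pericyte markers were lower in the luteal phase and 2 were higher, with sums of 699 to 1120 against 1265 to 1550. Both theca markers, 5 of 10 oocyte markers and 3 of 7 surface epithelium markers were lower too, with 1 oocyte and 1 epithelium marker higher. The luteal and stroma lists did not move with GJA1. All 9 luteal markers were higher in luteal phase ovaries. Of 6 stroma markers, 2 were higher, 1 was lower and 3 were not called. As a percentage of the granulosa sum, GJA1 overlapped between the phases, at 55.3 to 179 in luteal and 54.0 to 132 in follicular phase ovaries. The granulosa sum was carried mostly by INHA, INHBA and CYP19A1, the 3 markers not called. They varied widely within a phase, CYP19A1 from 5.49 to 111 in luteal phase ovaries, so overlap of this percentage says little. As a percentage of the stroma sum GJA1 did not overlap, at 5.54 to 10.8 against 12.3 to 27.8. COL3A1, which was higher in the luteal phase, was the most abundant of the stroma list. Whether these cell types had a part in the difference of GJA1 was not tested.

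GJA4 encodes a connexin of the oocyte surface and of vessel endothelium. Its FPKM was 56.4, 51.2, 48.3, 61.7 and 71.3 in luteal phase ovaries 1 to 5, and 21.4, 24.3, 25.5, 18.4 and 26.3 in follicular phase ovaries 1 to 5. The phases did not overlap, as was the case for 28.4% of all genes tested. GJA4 was at 57.8 ± 9.14 and 23.2 ± 3.26 (SD, n = 5 each), a difference of 1.31 on the log2 scale (standard error 0.12, 95% interval 1.04 to 1.58, limma adjusted p = 1.82e-05). A difference of this size or more was seen in 5.48% of all genes tested.

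GJA5 encodes a connexin known from arterial endothelium and the cardiac conduction system. In luteal phase ovaries 1 to 5 its FPKM was 32.8, 23.9, 17.4, 25.6 and 25.5, and in follicular phase ovaries 1 to 5 it was 11.3, 8.52, 9.08, 8.31 and 11.3. Luteal phase ovary 3 was the lowest of its phase but still above all follicular phase ovaries. GJA5 was at 25.1 ± 5.48 and 9.72 ± 1.51 (SD, n = 5 each), a log2 difference of 1.34 (standard error 0.16, 95% interval 1.00 to 1.68, limma adjusted p = 7.91e-05). For GJA4 and for GJA5 the exact permutation p was the smallest possible, 0.00794.

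**Figure D1:**
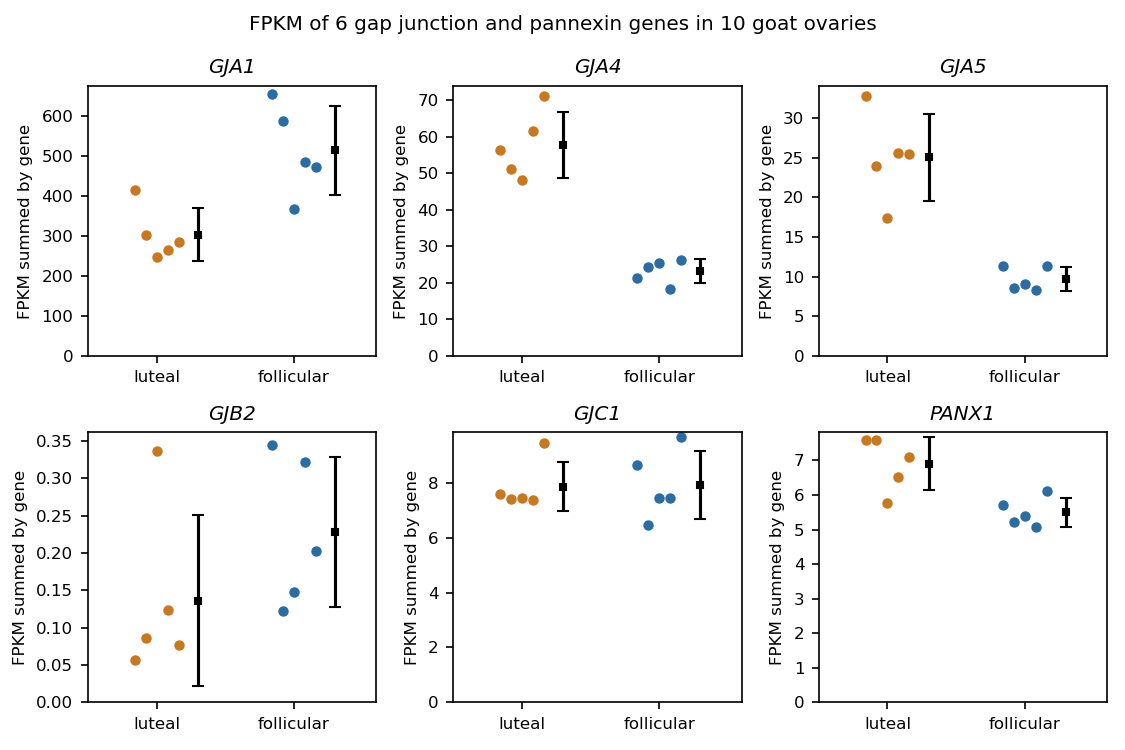
FPKM summed by gene (vertical axes, each from 0) of the 6 genes in the 5 luteal (orange) and 5 follicular (blue) phase ovaries, with the mean and SD of each phase in black. GJA4 and GJA5 are separated by phase, GJA1 and PANX1 overlap in 1 luteal phase ovary each, and GJC1 lies at 6.47 to 9.67 in both phases.

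The ratio of GJA4 to GJA5 overlapped between the phases, at 1.72 to 2.80 in luteal phase ovaries (median 2.41) and 1.88 to 2.85 in follicular phase ovaries (median 2.32). The ratio of GJA1 to GJA4, in contrast, was 4.00 to 7.38 in luteal phase ovaries (median 5.11) and 14.4 to 30.6 in follicular phase ovaries (median 24.2), without overlap. A single scaling factor per library cancels in such ratios, which equal quantiles do not. GJA1 was 10.3 to 14.2 times as high as GJA5 in luteal phase ovaries and 40.5 to 69.0 times in follicular phase ovaries.

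Endothelial markers moved in the direction of GJA4 and GJA5. Of the 12 markers, among them PECAM1, CDH5 and KDR, 11 were higher in the luteal phase, CLDN5 was not called, and none was listed at 0. Their summed FPKM was 287 to 373 in luteal against 166 to 198 in follicular phase ovaries. As a percentage of this sum, GJA4 was 14.2 to 19.1 in luteal phase ovaries (median 17.8) and 11.1 to 14.7 in follicular phase ovaries (median 12.9), so that the ranges overlapped. For GJA5 these percentages were 5.13 to 10.2 (median 7.41) and 4.58 to 6.37 (median 5.14), which overlapped as well. Of the 5 arterial markers, EFNB2 and SOX17 were higher in the luteal phase and 3 were not called, with summed FPKM of 22.1 to 28.8 against 17.2 to 19.5. As a percentage of the arterial sum, GJA5 was 78.8 to 119 in luteal and 44.6 to 61.0 in follicular phase ovaries, without overlap. For the oocyte, the other known site of GJA4, 5 of 10 markers were lower in the luteal phase, 4 were not called and KIT, which other cells express too, was higher. The part of endothelium or oocytes in the difference of GJA4 and GJA5 was not tested.

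**Figure D2:**
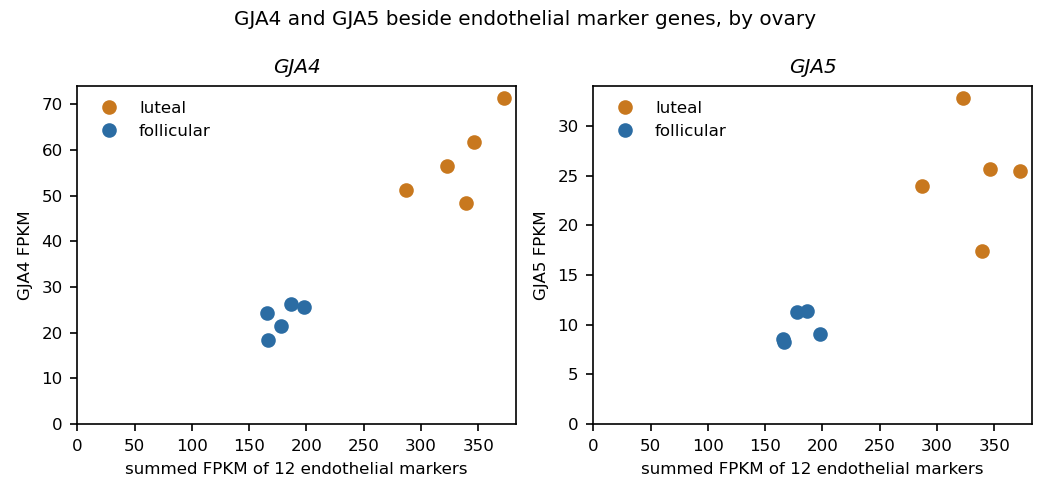
FPKM of GJA4 (left) and GJA5 (right) against the summed FPKM of 12 endothelial markers in each luteal (orange) and follicular (blue) phase ovary, both axes from 0. The luteal phase ovaries have marker sums of 287 to 373 and the follicular phase ovaries of 166 to 198, and each phase forms a cluster of its own in both panels.

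GJC1 encodes a connexin known from smooth muscle and the early heart. Its FPKM was 7.59, 7.39, 7.45, 7.39 and 9.44 in luteal phase ovaries 1 to 5, and 8.64, 6.47, 7.44, 7.44 and 9.67 in follicular phase ovaries 1 to 5. The luteal phase range lay inside the follicular phase range. GJC1 was at 7.85 ± 0.891 and 7.93 ± 1.24 (SD, n = 5 each), with a log2 difference of -0.01 and a 95% interval of -0.27 to 0.25 (limma adjusted p = 0.965). This interval leaves room for a ratio of luteal to follicular phase between 0.831 and 1.19. Of all genes tested, 98.9% differed by as much or more between the phases. The sign of so small a value changed with the scaling: it was 0.078 with equal medians, 0.058 with equal quantiles and 0.091 as TPM.

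GJB2 encodes a connexin of epithelia, best known from the inner ear and skin, and was near the minimum FPKM for testing in these ovaries. Its FPKM was 0.0574, 0.0857, 0.337, 0.124 and 0.0767 in luteal phase ovaries 1 to 5, and 0.345, 0.123, 0.148, 0.322 and 0.203 in follicular phase ovaries 1 to 5. It reached the minimum of 0.1 in 7 of the 10 ovaries. Luteal phase ovary 3 was at the level of the highest follicular phase ovaries, and 3 of the luteal phase ovaries lay below all follicular phase ovaries. The log2 difference was -0.53 with a 95% interval of -1.22 to 0.16 (limma adjusted p = 0.194). Its size depended on the constant added to FPKM, at -0.11 with 1 and -0.87 with 0.01 in place of 0.1, without a call in either. Without luteal phase ovary 3 the log2 difference was -0.78 (limma adjusted p = 0.0371), so the outcome rests on that ovary, and with a minimum of 0.5 GJB2 was not tested.

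PANX1 encodes a channel through which ATP is released. Its FPKM was 7.58, 7.58, 5.78, 6.52 and 7.09 in luteal phase ovaries 1 to 5, and 5.70, 5.22, 5.40, 5.08 and 6.12 in follicular phase ovaries 1 to 5. In 4 of the 5 luteal phase ovaries PANX1 was above all follicular phase ovaries, and luteal phase ovary 3 lay below follicular phase ovary 5. PANX1 was at 6.91 ± 0.769 and 5.50 ± 0.415 (SD, n = 5 each), a log2 difference of 0.32 (standard error 0.10, limma adjusted p = 0.0238; exact permutation p = 0.0159). A change of this size or more was seen in 52.3% of all genes tested. The call was lost without luteal phase ovary 1 (0.28, limma adjusted p = 0.0553), luteal phase ovary 2 (0.28, limma adjusted p = 0.0571), luteal phase ovary 5 (0.31, limma adjusted p = 0.0516) or follicular phase ovary 4 (0.29, limma adjusted p = 0.0537).

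Ordered by level, the genes were GJA1, GJA4, GJA5, GJC1, PANX1 and GJB2 in both phases. In the luteal phase the ranges of neighbours in this order were separate except for GJC1 and PANX1, where GJC1 was the higher in 4 of 5 ovaries. In the follicular phase GJA5 and GJC1 were the neighbours with overlapping ranges, although GJA5 was the higher in 5 of 5 ovaries, by 1.12 to 1.32 times. In the luteal phase this ratio was 2.34 to 4.32.

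The table lists 20 connexin genes. Their FPKM together came to 324 to 516 in the luteal phase ovaries (median 388) and 412 to 699 in the follicular phase ovaries (median 522). GJA1 held 72.5 to 80.5% of this sum in luteal and 89.2 to 93.6% in follicular phase ovaries. GJA4 held 10.9 to 18.1% and 3.06 to 6.19%, and GJA5 held 5.39 to 7.07% and 1.35 to 2.20%. For these 3 genes the shares of the phases did not overlap. The share of GJC1, at 1.47 to 2.40% and 1.03 to 1.85%, did overlap. Shares of a sum depend on each other, so they show the makeup of the connexin mRNA and add no separate evidence on any gene.

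**Figure D3:**
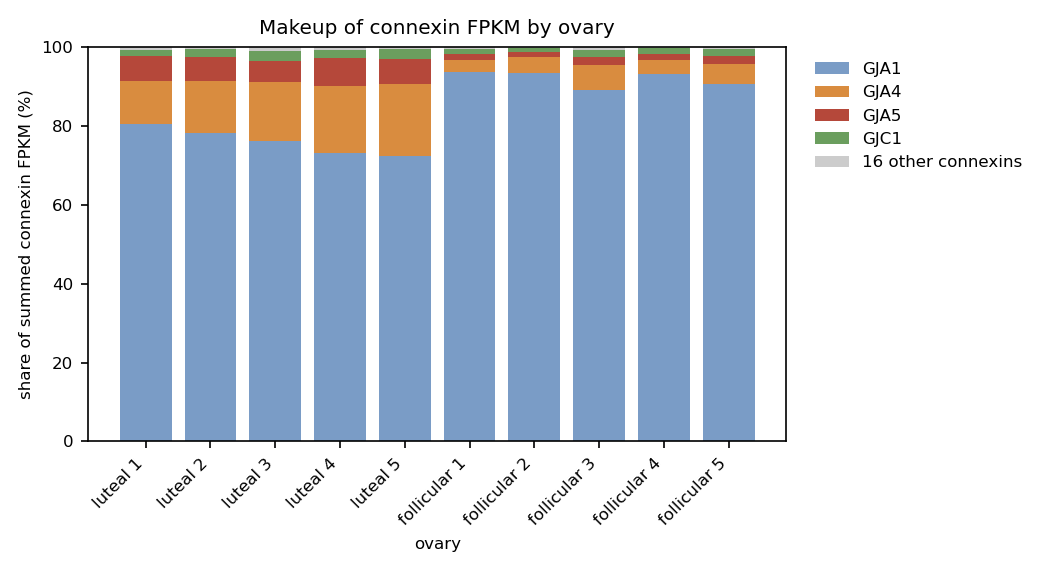
Share of the summed FPKM of 20 connexin genes (vertical axis, percent) held by GJA1, GJA4, GJA5, GJC1 and all other connexins in each ovary. The GJA1 part is 72.5 to 80.5% in the luteal phase ovaries and 89.2 to 93.6% in the follicular phase ovaries.

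Some genes are represented by several transcripts. For GJA1, XM_005684517.3 held nearly all FPKM, and XM_018053004.1 held between 0.0293 and 0.0520% in any ovary. GJA5 had the transcripts XM_005677755.3, with 89.3 to 96.3% of its FPKM, and XM_013962468.2. Both GJA5 transcripts were higher in the luteal phase, by 1.33 (standard error 0.17, limma adjusted p = 0.000681 over all transcripts) and 1.37 (standard error 0.29, limma adjusted p = 0.0104) on the log2 scale. Of the 8 transcripts of the 6 genes that were tested, 4 were called, against 17.3% of all transcripts. The main PANX1 transcript, XM_013975740.2, was at 0.33 with a limma adjusted p of 0.0590 over all transcripts, and of 0.0349 when each gene was represented by its most abundant transcript, so its call turned on the set adjusted over. With equal medians, equal quantiles, TPM, a minimum of 0.5, eBayes without trend or without luteal phase ovary 3, 5 transcripts of the 6 genes were called in place of 4. The other PANX1 transcript, XR_001917505.1, was listed at 0 in 5 ovaries and did not reach the minimum.

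Beyond these 6 genes, a list of the other connexins and pannexins had 18 symbols, 17 of which are in the table. Only 8 of the 17 passed the minimum of 0.1 in at least 5 ovaries, and 2 of the 8 were called, both higher in the luteal phase (25.0% called, against 43.7% of all genes, 15.9% in this direction). GJD3 is a connexin gene that was at 1.45, 1.17, 1.08, 1.16 and 0.675 in luteal phase ovaries 1 to 5 and at 0.337, 0.186, 0.302, 0.157 and 0.455 in follicular phase ovaries 1 to 5. All luteal phase values of GJD3 lay above all follicular phase values, with a log2 difference of 1.66 (standard error 0.25, limma adjusted p = 0.000450). GJA9 was at 0.183 to 0.264 in luteal and at 0.0135 to 0.0616 in follicular phase ovaries (log2 difference 1.29, limma adjusted p = 0.000318). GJA9 passed the minimum only through the luteal phase ovaries, so that it could hardly enter the test without a difference, and without any 1 of the luteal phase ovaries it was not tested and 1 gene of the list was called.

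The other 6 tested genes of that list were not called. Among them, GJA3, GJB5, GJC3 and PANX2 were at a mean FPKM of 0.156 to 0.548 in each phase, with log2 differences from -0.52 for GJC3 to 0.82 for GJB5. The 9 genes below the minimum, among them GJA10, GJB1, GJB6 and PANX3, did not exceed an FPKM of 0.281 in any ovary.

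By the RefSeq gene order of the goat assembly ARS1.2, GJA3 and GJB2 are direct neighbours, and both were low in these ovaries.

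**Figure D4:**
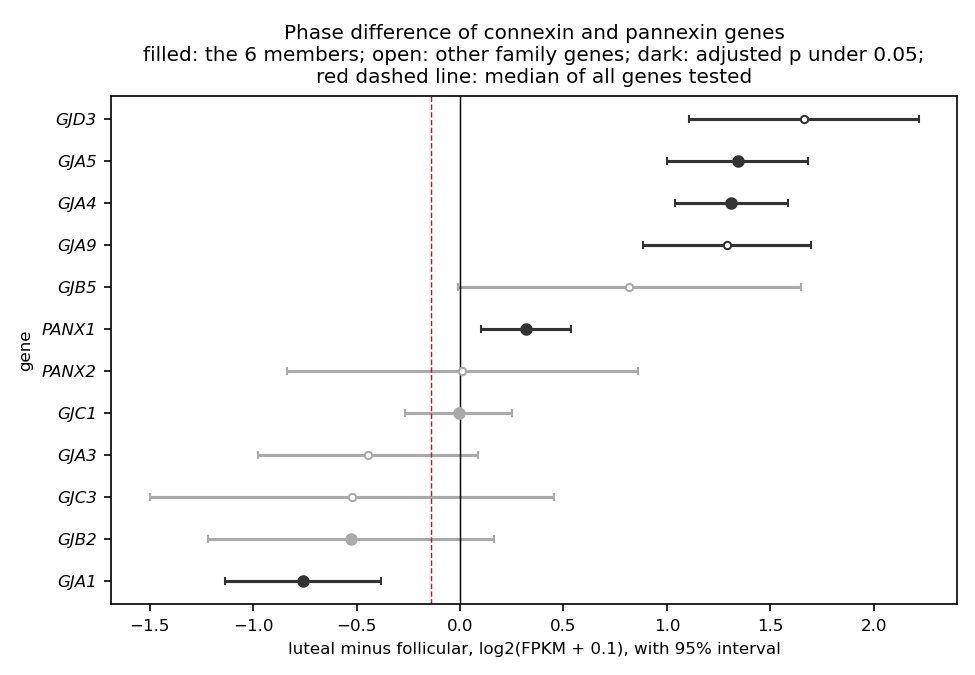
Luteal minus follicular difference on log2(FPKM + 0.1) with its 95% interval (horizontal axis) for 12 of the 14 connexin and pannexin genes tested, the 6 genes of the main list filled and the others open, dark where the adjusted p was under 0.05. GJD3, GJA5, GJA4, GJA9 and PANX1 lie to the right of 0 and GJA1 to the left, and the dashed line marks the median of all genes, -0.14.

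Gap junctions are anchored, assembled and switched by partner proteins, among them the ZO scaffold proteins, cadherins and protein kinases. Of 21 genes for connexin partners, 8 were called (38.1%, against 43.7% of all genes), 2 higher and 6 lower in the luteal phase, with a median log2 difference of -0.16 (-0.14 for all genes). With equal medians of all ovaries, 4 were higher and 5 lower. CDH2, N-cadherin, which joins granulosa cells, was at 20.8 ± 2.58 in luteal and 42.0 ± 6.42 in follicular phase ovaries (log2 difference -1.01, limma adjusted p = 7.65e-05). PRKCA, a protein kinase C, was at 5.71 ± 1.01 against 9.04 ± 0.602 (log2 difference -0.67, limma adjusted p = 0.000934). SRC, a tyrosine kinase that phosphorylates the GJA1 protein, was at 3.44 ± 0.460 and 5.23 ± 0.467 (log2 difference -0.60, limma adjusted p = 0.00165). NEDD4, a ubiquitin ligase that acts on the GJA1 protein, was at 14.7 ± 1.79 and 10.2 ± 0.529 (log2 difference 0.52, limma adjusted p = 0.00117). These 4 were chosen among the called genes without overlap. Over the whole list, 7 of the 21 genes did not overlap between the phases, against 28.4% of all genes. CDH1, E-cadherin of epithelia, was called with overlap and had the largest difference of the list, in the other direction from CDH2, at 2.28 ± 1.18 in luteal and 0.849 ± 0.127 in follicular phase ovaries (log2 difference 1.18, limma adjusted p = 0.00991). The scaffold gene TJP1 was at 15.0 and 15.8 and was not called.

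Cyclic GMP that passes from granulosa cells through gap junctions is known to hold the oocyte in meiotic arrest. Of 12 genes for cyclic nucleotide synthesis, breakdown and sensing, 10 were tested and 6 were called, 1 higher and 5 lower in the luteal phase, with a median log2 difference of -0.19. Of all genes, 43.7% were called and 27.8% were lower in the luteal phase, with a median of -0.14. As TPM, 4 genes of this list were called, 1 higher and 3 lower. IMPDH2, an enzyme of guanine nucleotide synthesis, was at 53.4 ± 11.1 in luteal and 102 ± 15.1 in follicular phase ovaries (log2 difference -0.94, limma adjusted p = 0.000477). IMPDH1, its paralogue, was at 2.94 ± 0.353 and 4.14 ± 0.556 (log2 difference -0.48, limma adjusted p = 0.010). ADCY3, an adenylyl cyclase, was at 6.65 ± 0.570 and 10.6 ± 1.45 (log2 difference -0.65, limma adjusted p = 0.000762). GUCY1B3, a subunit of soluble guanylyl cyclase, was the gene called higher, at 18.8 ± 2.11 against 11.4 ± 1.69 (log2 difference 0.72, limma adjusted p = 0.000725). NPPC, the ligand that drives cyclic GMP synthesis in granulosa cells, was at 0.775 and 0.569 and was not called, while its receptor NPR2 was lower in the luteal phase (-0.53, limma adjusted p = 0.0181).

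ATP released by pannexin channels acts on purinergic receptors and is broken down outside the cell. Of 10 genes of this kind, 4 were called (against 43.7% of all genes), all higher in the luteal phase (against 15.9% of all genes), as PANX1 was. The median log2 difference was 0.41, against -0.14 for all genes. P2RY1, an ADP receptor, was at 3.79 ± 0.413 in luteal and 1.09 ± 0.344 in follicular phase ovaries (log2 difference 1.74, limma adjusted p = 2.83e-05). P2RY2, a receptor for ATP and UTP, was at 0.892 ± 0.483 and 0.228 ± 0.0491 (log2 difference 1.48, limma adjusted p = 0.00231). ENTPD1, an ectonucleotidase that breaks down ATP and ADP, was at 7.79 ± 0.518 and 3.54 ± 0.297 (log2 difference 1.12, limma adjusted p = 6.75e-06). P2RX4, an ATP-gated cation channel, was at 16.4 ± 2.04 and 7.90 ± 1.00 (log2 difference 1.04, limma adjusted p = 4.67e-05). These 4 were chosen as called genes without overlap, and no other gene of the list was without overlap (4 of 10, against 28.4% of all genes).

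**Figure D5:**
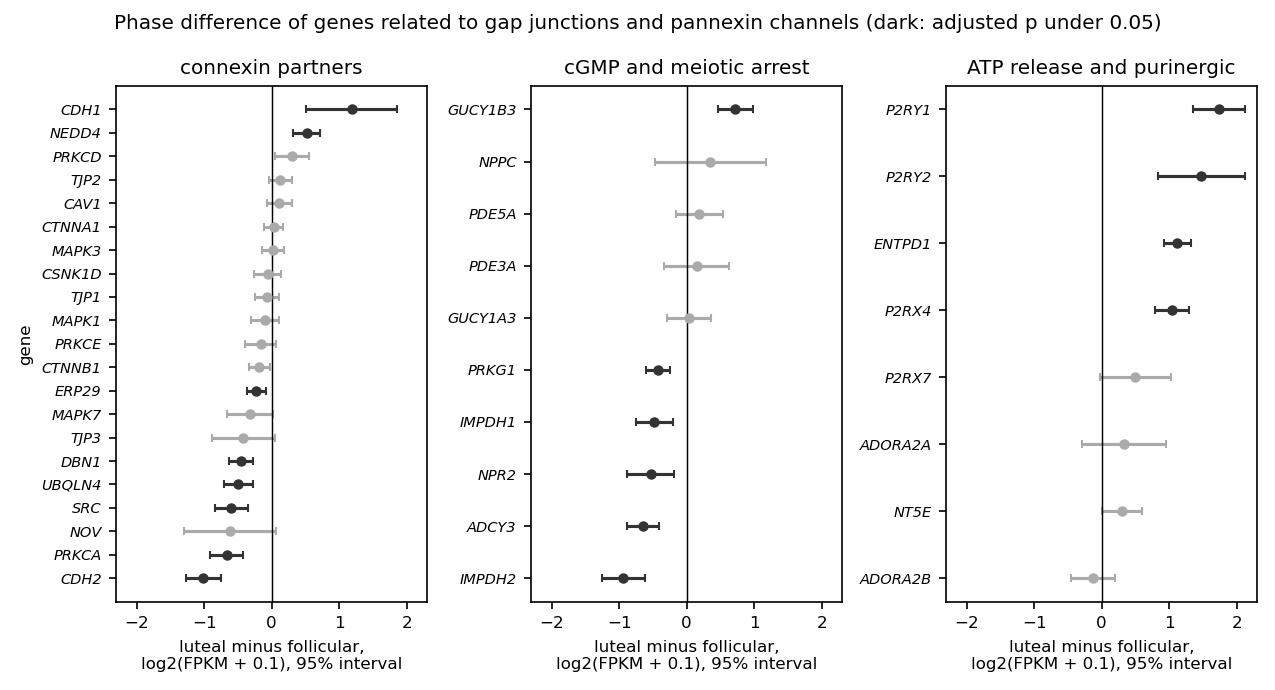
Luteal minus follicular difference on log2(FPKM + 0.1) with its 95% interval for tested genes of the lists of connexin partners (left), cyclic GMP and meiotic arrest (middle) and ATP release and purinergic signalling (right), dark where the adjusted p was under 0.05. CDH2 is lowest among the partners at -1.01, IMPDH2 lowest in the middle list at -0.94, and P2RY1 highest on the right at 1.74.

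For each called gene, the genes with the most similar profile over the 10 ovaries were found by the mean absolute difference of log2(FPKM + 0.1) after each gene was centred on its own mean, among 13588 named genes. For GJA1 these were MCM2 (mean difference 0.105), GFRA3 (0.109) and POC1A (0.120). GJA4 was closest to C10H15orf52 (0.108), ECSCR (0.123) and FAM198A (0.124). GJA5 was closest to GRB10 (0.0995), MTMR12 (0.130) and PLBD1 (0.130). For PANX1 the nearest were UBAP1 (0.0427), MBD1 (0.0637) and HABP4 (0.0645). A small distance is a description of these ovaries only. ECSCR was at 43.1 ± 3.99 in luteal and 19.0 ± 2.21 in follicular phase ovaries, and MCM2 at 4.30 ± 1.11 and 7.60 ± 1.73 (SD, n = 5 each).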

How the data were processed

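Libraries were strand-specific and depleted of ribosomal RNA. The authors used HISAT2 for alignment, StringTie for assembly and Cuffdiff for the deposited FPKM of each transcript and ovary. No ovaries were pooled. The other deposited tables repeat rows of the transcript table. The genome build is not given by name in the sources used here.

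FPKM of mRNA rows were summed by symbol. Genes that reached 0.1 FPKM in 5 or more ovaries were tested on log2(FPKM + 0.1) with limma 3.58.1 (lmFit, eBayes with trend, two-sided) in R 4.3.3, with Benjamini-Hochberg adjustment over all genes, or over all transcripts. This scale understates the change of low genes. Single genes were also tested by exact permutation in Python 3.11.15 (numpy 2.4.6, pandas 2.3.3, matplotlib 3.10.9). The fit was tested on simulated data in which 200 of 15359 genes were changed, far fewer than were called here. It recovered 69% of the genes changed by 1 (log2) and 92% of those changed by 2, and 3.01% of its calls were false. Alternatives were other pseudocounts, filters and scalings, eBayes without trend, a replicate block, single transcripts and leaving out each ovary. The paper sums its reads over the 10 libraries. The depth of each ovary is unknown, and no counting error is given.

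Members and lists were chosen with earlier results of these data known. Named were all members, all tested connexins and pannexins, up to 4 called genes without overlap per related list, and the 3 nearest genes of each called member. TJP1, CDH1, NPPC, NPR2 and single markers were named after their values were seen. CYP11A1 and CYP17A1 were found through RefSeq synonyms, and CCN3, GUCY1A1, GUCY1B1 and HSD3B1 under NOV, GUCY1A3, GUCY1B3 and 3BHSD. Some genes of the lists are counted but not reported here by name. Equal ovary numbers were not treated as pairs.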

Additional observations from a re-analysis of the deposited data

Results flagged for a closer look

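In 4 of the 52 sets of 5 ovaries of a phase checked (26 genes), the highest ovary lay far from the others by Dixon's test, and chance alone flags about 1 in 20. GJB2 was at 0.337 in luteal phase ovary 3, against at most 0.124 in the other luteal phase ovaries. GJC1 was at 9.44 in luteal phase ovary 5, against 7.39 to 7.59 in the others. P2RY1 was at 1.70 in follicular phase ovary 5, against at most 0.987 in the others, and still below all luteal phase ovaries. P2RY2 was at 0.313 in follicular phase ovary 4, against at most 0.228 in the others.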

How the results depend on the processing

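GJA1, GJA4 and GJA5 kept their direction and their call in all 20 alternatives run for each. Their log2 differences ran from -0.88 to -0.66, from 1.23 to 1.41 and from 1.24 to 1.47, and the highest limma adjusted p was 0.0144, for GJA1. The number of the 6 genes called stayed at 4 under other pseudocounts, filters and scalings, and ran from 3 to 5 when 1 ovary was left out. PANX1 kept its direction and lost its call only in 4 fits without 1 ovary (adjusted p = 0.0516 to 0.0571). The GJC1 difference changed sign, to 0.078 with equal medians, 0.058 with equal quantiles and 0.091 as TPM, and ran from -0.076 to 0.067 without 1 ovary, never with a call. Of the other connexins and pannexins, 1 was called with a minimum FPKM of 0.5, because 1 was tested, and 1 to 2 without 1 ovary.

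No label ties ovaries of equal number across the phases, and whether they are pairs cannot be decided from these values. Deviations from the phase means correlated at 0.03 to 0.20 in the 5 equal-numbered pairs, all positive, and above 0.1 in 2. Of the 5 luteal phase ovaries, 2 correlated best with their own number. With the replicate number as a block, 4 of the 6 genes were called, and 3 of the other connexins and pannexins in place of 2. GJA1 was then at -0.76 with a standard error of 0.076 (limma adjusted p = 0.00053), against 0.17 (limma adjusted p = 0.00473) without the block. Over all genes, 7020 were called with the block and 6711 without. Without read counts, low genes such as GJB2 cannot be given a limit of detection.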

Other observations

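Other marker lists describe the ovaries further. Both theca markers in the list, CYP17A1 and INSL3, were lower in the luteal phase, with summed FPKM of 17.1 to 69.2 against 139 to 202. Of 6 stroma markers, 2 were higher and 1 lower in the luteal phase (sums of 2645 to 4455 against 2114 to 2987). Of the 7 surface epithelium markers in the table, 1 was higher and 3 lower (19.9 to 39.3 against 21.0 to 62.6). Of the 6 leukocyte markers in the table, 1, CSF1R, was higher (48.4 to 57.9 against 29.2 to 66.1). The 3 blood markers in the table summed to less than 1 FPKM in each ovary. The oocyte markers summed to 69.8 to 101 in luteal and 27.9 to 61.3 in follicular phase ovaries, with KIT the most abundant of the list. KIT alone was at 56.5 to 92.6 against 11.1 to 13.1, and the other 9 markers summed to 8.65 to 20.3 against 16.7 to 48.2, with overlapping ranges.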
